A study of Mus musculus with 4 samples.

Results

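The Krüppel-like factors (KLFs) Klf2, Klf3, Klf4, Klf6, Klf7, Klf10 and Klf13 were followed in single-cell RNA-sequencing data from mouse microglia. The 7 genes were listed by symbol from the 28692 genes of the gene table, which held 17 Klf genes and 9 genes of the related Sp family. They were chosen by earlier results of these data, namely their levels per library and their relation to immediate early genes, so their own levels are given below as a description without a test. The study asked how tissue handling alters microglial gene expression. Its labels place all 4 libraries used here in 1 group (n = 4), and each library came from 1 male C57BL/6J mouse at postnatal day 90. Every mouse had received PBS through the tail vein 24 h before sacrifice per the labels, although the methods of the study give another interval. Cortex and hippocampus were dissociated by cold Dounce homogenization, a mechanical method on ice without enzymes, and live cells positive for CD45 and CD11b were sorted. There was no untreated or enzymatically digested group, so the comparisons below were between libraries, between cells of a library and between genes. The libraries are called replicates 1 to 4 in the order of their sample titles. The methods describe an interrupted sort, with time at room temperature, for the last animal of this dataset. The supplement calls it the fourth sample in the study's own numbering, which is not that of the sample titles, and the labels do not say which library that is. The study reported cells with its signature of ex vivo activation almost only in that sample of this dataset.

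KLFs are zinc-finger transcription factors that bind GC-rich and CACCC sequences, and they divide into activators and repressors by the cofactors they recruit. Klf2 and Klf4 are known as regulators of quiescence and inflammatory tone in endothelial and myeloid cells, and both lie downstream of a kinase cascade that ends in ERK5 and MEF2 factors. Klf6 and Klf10 are known as early-response members that rise rapidly after stress or growth factor signals, Klf3 recruits CtBP to repress transcription, Klf7 is best known from neurons, and Klf13 from lymphocytes.

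On GRCm38 (GENCODE M21), Klf2 (ENSMUSG00000055148) lies on the plus strand of chromosome 8 from 72319033 to 72321656. Klf3 (ENSMUSG00000029178) lies on the plus strand of chromosome 5 from 64803388 to 64832901. Klf4 (ENSMUSG00000003032) lies on the minus strand of chromosome 4 from 55527143 to 55532466. Klf6 (ENSMUSG00000000078) lies on the plus strand of chromosome 13 from 5861482 to 5870394. Klf7 (ENSMUSG00000025959) lies on the minus strand of chromosome 1 from 64029447 to 64122282, Klf10 (ENSMUSG00000037465) on that of chromosome 15 from 38291463 to 38300706, and Klf13 (ENSMUSG00000052040) on that of chromosome 7 from 63886351 to 63938915. All are protein-coding. Klf2, Klf4, Klf6 and Klf10 overlapped no other annotated gene, whereas Klf3 overlapped 2, Klf7 overlapped 3 and Klf13 overlapped 2. Of these, C230096K16Rik at Klf3 and Mir6899 at Klf7 lie on the same strand as the KLF, so the counts of Klf3 and Klf7 are less certain there.

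Promoter sequences from RefSeq (GRCm38.p6) matched 6 of the 7 genes. The 250 bases upstream of the RefSeq start were GC-rich in all 6, from 59.2% in Klf7 to 78.4% in Klf3, against a median of 52.4% over 32851 promoters. Those of Klf2, Klf4 and Klf6 are shown because Klf2 was the member that differed most between libraries, Klf4 resembled it across cell classes, and Klf6 was an abundant member that did neither to that extent. Bases inside the GENCODE gene model were left off. The windows of Klf7 and Klf3, which are not shown, lay wholly and partly inside their GENCODE gene models. Their GC shares and motif counts are those of the RefSeq start. Capitals mark TGACG (a partial cAMP response element, CRE), CCAAT and the MEF2 consensus, read on either strand. The windows are chr8:72318812-72319032 (plus strand), chr4:55532476-55532725 (minus strand) and chr13:5861239-5861481 (plus strand).
Klf2: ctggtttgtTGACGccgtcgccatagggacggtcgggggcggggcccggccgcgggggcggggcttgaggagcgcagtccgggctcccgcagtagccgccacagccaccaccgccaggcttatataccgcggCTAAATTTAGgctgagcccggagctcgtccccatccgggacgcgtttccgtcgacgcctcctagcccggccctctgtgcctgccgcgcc
Klf4: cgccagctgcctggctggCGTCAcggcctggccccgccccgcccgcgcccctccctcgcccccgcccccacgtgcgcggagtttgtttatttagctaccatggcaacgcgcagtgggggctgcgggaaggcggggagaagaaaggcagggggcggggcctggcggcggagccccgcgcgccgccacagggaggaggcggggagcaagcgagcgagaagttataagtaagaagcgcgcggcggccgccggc
Klf6: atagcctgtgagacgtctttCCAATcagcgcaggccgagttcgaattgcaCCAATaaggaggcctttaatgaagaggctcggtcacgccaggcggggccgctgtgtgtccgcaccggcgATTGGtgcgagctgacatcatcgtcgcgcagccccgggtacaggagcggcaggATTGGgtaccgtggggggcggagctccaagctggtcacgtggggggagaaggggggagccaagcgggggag

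Motifs were searched on both strands of the full 250 bases. The MEF2 consensus was found in Klf2 alone among the 6 members, 118 to 109 bases before the start, and in 0.508% of all promoters. TGACG was found in Klf2, Klf4 and Klf13, and in 17.8% of all promoters. CCAAT was found in Klf6, with 4 copies, and in Klf13, and in 33.8% of all. The GC box GGGCGG was found in 6 of 6 members and 32.7% of all promoters, and CACCC in 4 of 6 and 52.0%. The full CRE TGACGTCA (which contains TGACG), the AP-1 site TGANTCA and the serum response element were found in 0 of 6 members and in 1.55%, 6.75% and 1.47% of all promoters. These are matches of letters in a short window and show no binding. In the longest annotated 3′ UTR, the AU-rich nonamer TTATTTATT was found in 0 of the 7 members and in 7.79% of the 7282 genes with a UTR and a mean of 10 CPM or more. The pentamer ATTTA occurred once in the 737-base UTR of Klf2 and 4 times in the 1492-base UTR of Klf10, against 18 copies in the 6266 bases of Klf7.

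Counts of unique molecular identifiers (UMIs) were kept for 13002 of 13138 barcodes, leaving out barcodes with fewer than 400 genes or with mitochondrial UMIs above 10%. The 4 libraries held 2576 to 3692 cells, 5841671 to 11267195 UMIs and medians of 1905 to 2936 UMIs per cell, and 81 barcodes occurred in more than 1 library. The labelled cell type was borne out by 9 microglial markers, P2ry12 and Tmem119 among them, which summed to 39305 to 40387 CPM (UMI counts scaled to the total of the library). Clusters named microglia-like held 12721 cells and an interferon-responsive microglia-like cluster held 173. A further 108 cells formed a cluster left unnamed, led by the antigen presentation genes Cd74, H2-Aa and H2-Eb1. In it all 9 microglial markers, 8 border macrophage markers and 3 monocyte markers were each detected in 10% of cells or more. The 8 border macrophage markers summed to 24.2 to 101 CPM per library and the 5 monocyte markers to 11.7 to 54.7 CPM, both highest in replicate 4. Neutrophil and erythroid markers were at 0 UMIs, and the limit of 3 UMIs that a count of 0 allows is 0.514 CPM in the shallowest library. The 12 immediate early genes, transcribed without new protein synthesis within minutes of a stimulus, had a summed level of 1376, 1543, 1344 and 3127 CPM across the 4 libraries, highest in replicate 4. Mouse, capture, sort and library coincide here and cannot be told apart, and with 1 mouse per library the spread between replicates includes all of them.

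Of the 7 factors, 6 reached a mean of 10 CPM, against 26.7% of all genes of the gene table. Levels are CPM of a 3′ tag method, which counts transcript ends without regard to length. The order of means ran from Klf3 (193 ± 9.71 CPM, SD, n = 4 here and below) through Klf6 (144 ± 12), Klf13 (94.8 ± 10.1), Klf7 (66.1 ± 3.91), Klf2 (50.8 ± 48.9) and Klf10 (14.2 ± 1.53) to Klf4 (7.90 ± 3.81), which alone fell short. The library ranges of Klf3, Klf6, Klf13 and Klf7 did not overlap, so these 4 kept their order in every library. The range of Klf2 spanned those of Klf7 and Klf13, and its place from the top was 5 in replicates 1 to 3 and 3 in replicate 4. Klf10 and Klf4 overlapped in range, although Klf10 was the higher in each library.

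**Figure D1:**
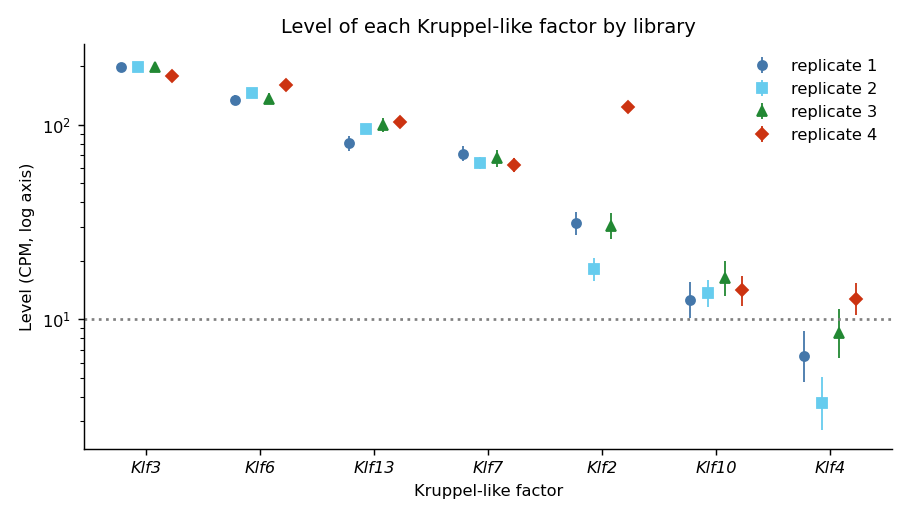
Level of each factor in CPM on a log axis, by library. Points are the 4 libraries, bars are exact 95% Poisson intervals that cover counting error only, and the dotted line marks 10 CPM. Klf3, Klf6, Klf13 and Klf7 lie within narrow bands, whereas Klf2 runs from 18.1 to 124 CPM.

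Klf3 was measured at 198, 198, 198 and 178 CPM in replicates 1 to 4, from 1394, 2226, 1157 and 1605 UMIs. Replicates 1 to 3 were within 1 CPM of each other and replicate 4 was lower, at 0.902 times their mean. The exact interval of replicate 4 (170 to 187 CPM) overlapped the lower end of that of replicate 3, which reached 210 CPM, and lay below that of replicate 2 (189 to 206 CPM). Dixon's range ratio, the gap between an end value and its neighbor over the range of the 4 values on log2(CPM + 1), was 0.976 for Klf3, with replicate 4 at the low end. It is given as a description, since the factors were chosen on these levels. The other 3 values lay within 197.6 to 198.1 CPM, so a small difference sufficed for a large ratio.

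Klf6 was measured at 134, 145, 137 and 161 CPM. Replicate 4 was highest, with a ratio of 1.16 to the others' mean. Klf13 was measured at 80.4, 95.4, 100.1 and 103 CPM, where replicate 1 was low, with an interval (73.9 to 87.3 CPM) below that of replicate 2 (89.8 to 101 CPM), and the others were close. Klf7, at 71.0, 63.9, 67.4 and 62.2 CPM, was lowest in replicate 4, at 0.922 times the others. Klf10 was measured at 12.6, 13.7, 16.3 and 14.1 CPM, with a ratio of 0.995 for replicate 4 and overlapping intervals in all libraries.

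Klf2 was measured at 31.2, 18.1, 30.3 and 124 CPM, from 220, 204, 177 and 1113 UMIs. Replicate 4 was 4.66 times the mean of the others, and its interval (117 to 131 CPM) lay far from the next highest (27.2 to 35.6 CPM in replicate 1). Replicate 2 was in turn lower than replicates 1 and 3, with an interval of 15.7 to 20.8 CPM. Because of that spread among the other 3, the range ratio was 0.722 on the log scale, whereas it was 0.876 on CPM without a log. Klf4 was measured at 6.52, 3.73, 8.56 and 12.8 CPM, from 46, 42, 50 and 115 UMIs. It was also highest in replicate 4, at 2.04 times the others, but the interval of replicate 4 (10.5 to 15.3 CPM) overlapped that of replicate 3 (6.35 to 11.3 CPM).

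In all, 3 of the 6 factors at 10 CPM or more (Klf2, Klf6 and Klf13) were highest in replicate 4, where 31.8% of the 7656 genes at that level were. Replicate 4 was highest with a log-scale range ratio above Dixon's critical value in 0 of the 6 and in 1.1% of those genes. Without the log it was so in Klf2, and the share of all genes on that scale was not computed. A ratio of 1.5 or more in replicate 4 was reached by Klf2 alone among the 6, and by 0.993% of those genes. The median ratio was 1.06 over the 6 factors, 1.01 over all 7656 genes and 2.55 over all 12 immediate early genes, whatever their level. Of these, 11 were highest in replicate 4 and Nr4a1 was not (ratio 0.672). Over the 8 that held a mean of 10 CPM without replicate 4, the ratios ran from 1.18 for Atf3 to 14.0 for Fos, with a median of 2.22. Klf2 had a ratio between those of Jun (2.76) and Ier2 (4.93), and the other 5 factors had ratios from 0.902 to 1.16. As a share of the UMIs of all 7 factors, Klf2 made up 5.84%, 3.37%, 5.43% and 18.9% in replicates 1 to 4, and Klf3 made up 37.0%, 36.8%, 35.5% and 27.2%.

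**Figure D2:**
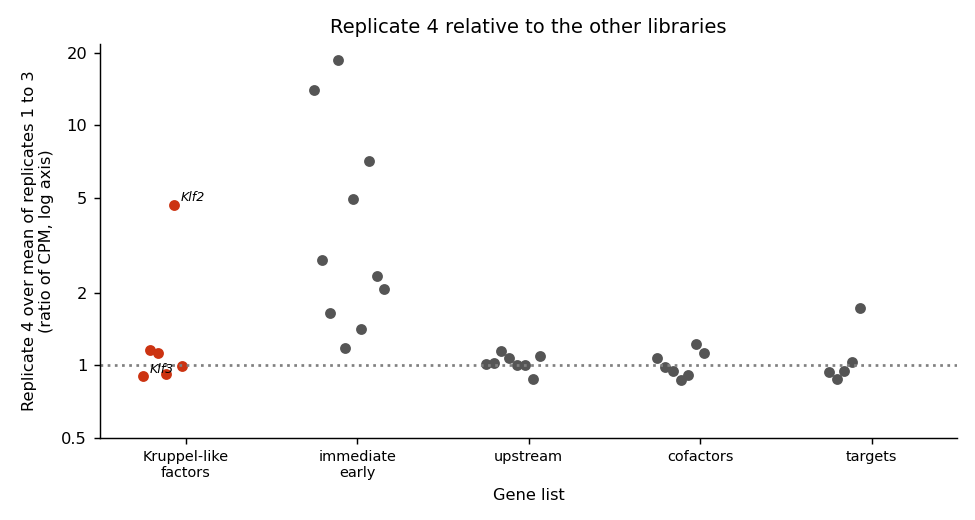
Ratio of the level in replicate 4 to the mean of replicates 1 to 3, on a log axis, for genes at a mean of 10 CPM or more over the 4 libraries in each list, 1 point per gene. Egr1 and Dusp1 reached that mean through replicate 4. Klf2 lies at 4.66 among the immediate early genes, and the remaining factors and the upstream, cofactor and target lists lie near 1, with a single target (Lgals3) at 1.73.

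Detection followed the levels. To compare shares of cells at equal depth, each cell was thinned at random to 1000 UMIs, which left out 23 to 85 cells per library. At this depth Klf3 was detected in 17.9% ± 1.15 of cells, Klf6 in 13.6% ± 0.981, Klf13 in 8.81% ± 1.09, Klf7 in 6.18% ± 0.530, Klf10 in 1.34% ± 0.103 and Klf4 in 0.735% ± 0.380. Without thinning the shares were higher in every case, for example 37.0% ± 5.25 for Klf3 and 29.1% ± 5.86 for Klf6. Klf2 was detected in 2.26%, 1.5%, 2.13% and 8.86% of thinned cells. The exact interval of replicate 4 (7.88 to 9.92%) was far above the highest of the others (1.79 to 2.81% in replicate 1). Klf4 was detected in 0.572%, 0.382%, 0.723% and 1.27%, and the interval of replicate 4 (0.901 to 1.73%) lay above those of replicates 1 (0.350 to 0.882%) and 2 (0.209 to 0.639%). Unthinned, 3.83%, 3.52%, 4.04% and 18.0% of cells held Klf2. No cell type that lacks these genes was captured in number, so the part of free RNA in the shares was not tested. In the microglia-like cluster with the shallowest cells (187 cells, median of 1062 UMIs), Klf2 had 3 UMIs and Klf4 had 0.

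**Figure D3:**
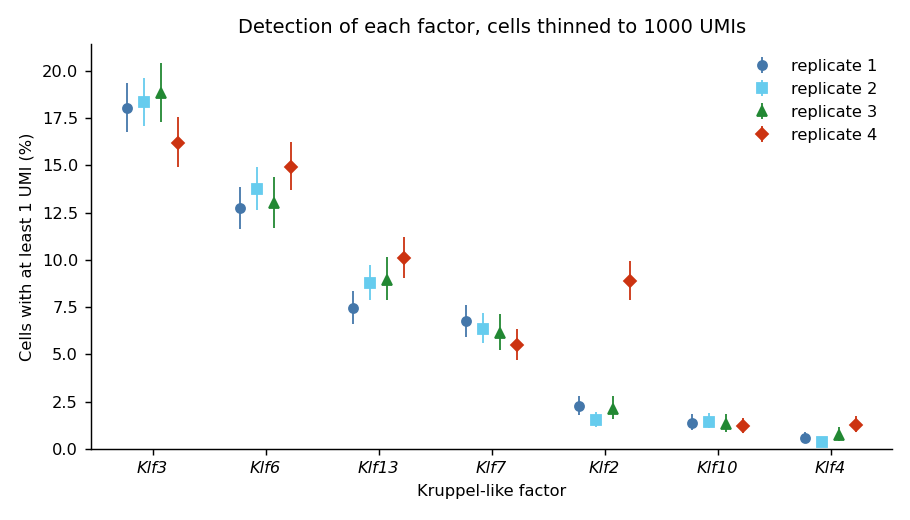
Share of cells with at least 1 UMI of each factor after thinning every cell to 1000 UMIs, in percent, by library, with exact 95% binomial intervals. Klf2 in replicate 4 lies at 8.86%, the others of Klf2 at 1.5 to 2.26%, Klf4 runs from 0.382 to 1.27%, and each of the remaining factors spans less than 1.5 times from its lowest to its highest library.

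For most of the factors the thinned counts varied about as much as counting alone gives. At means of 0.0574 (Klf7, replicate 4) to 0.208 UMIs per cell (Klf3, replicate 3), this cannot show that cells held them evenly. The Fano factor (variance over mean of the thinned counts, 1 for Poisson counts) was 0.978 to 1.03 for Klf3, 1.05 to 1.07 for Klf6, 1.01 to 1.05 for Klf13 and 1.03 to 1.04 for Klf7. For Klf2 it was 2.03, 1.95, 2.24 and 1.58 in replicates 1 to 4, above that of any other factor in each library. By this measure Klf2 UMIs were the most unevenly spread of the 7, and least so in replicate 4. Cells with 2 or more Klf2 UMIs made up 0.372%, 0.30%, 0.401% and 1.98%. Of all thinned cells, 57.5% ± 2.48 held none of the 7 factors, 34.0% ± 1.46 held 1, 7.41% ± 0.928 held 2 and 1.09% ± 0.296 held 3 or more.

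The relation to the UMIs of the immediate early list was then examined within libraries. In replicates 1 to 3 the 12 immediate early genes differed widely in level. Jun, Junb, Ier5 and Btg2 were at 260 to 382 CPM, Zfp36 at 68.8 to 81.1 CPM and the rest at 22.0 CPM or less. In replicate 4 Jun, Junb, Ier5 and Btg2 were at 460 to 811 CPM and Fos at 142 CPM, of a sum of 3127 CPM. Thinned cells were divided by their summed UMIs of all 12, none a KLF, so in every library the abundant genes mainly set the classes. Cells with 3 or more such UMIs made up 18.2%, 22.3%, 16.6% and 50.3% of replicates 1 to 4, and cells with none 27.5%, 24.0%, 28.6% and 11.9%. At summed levels of 1344 to 1543 CPM in replicates 1 to 3, a thinned cell holds few such UMIs. Counting alone therefore also spreads cells over the classes, and a class need not mark cells with a response. How far the split there goes beyond counting was not tested. Median depth before thinning was close in both classes, for example 2834 and 2734 UMIs in replicate 4. Klf2 and Klf10 were higher in the cells with 3 or more in every library, so 2 of 7 factors were, against 7.09% of the other genes tested. With a minimum of 1.2-fold in every library these 2 factors remained, against 0.798% of genes. The factors were chosen with this relation known, so these shares are a description and no test.

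Klf2 gave 50.4 UMIs per 1000 cells in the high class and 24.0 in the class with none in replicate 1, 28.1 and 15.9 in replicate 2, 46.0 and 21.1 in replicate 3, and 171 and 51.6 in replicate 4. The folds were 2.10, 1.77, 2.18 and 3.31 (geometric mean 2.28), which ranked 6 of 7625 genes. The counts were small in replicates 1 to 3, at 19 to 32 UMIs against 14 to 23, and the exact intervals of the classes overlapped there. In replicate 4, with 265 UMIs against 19, they did not overlap (151 to 193 against 31.1 to 80.6 per 1000 cells). Even among cells with no immediate early UMI, replicate 4 held more Klf2 than the others, at 51.6 per 1000 cells against 15.9 to 24.0, although its interval overlapped those of replicates 1 (15.2 to 35.9) and 3 (11.8 to 34.7).

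The relation of Klf2 to the classes depended on how they were drawn. Within microglia-like clusters alone the folds were 1.40, 1.08, 2.97 and 3.25, so in replicates 1 and 2 much of the difference went with the cells left out. With cells thinned to 2000 UMIs no factor was higher in every library. The class with none then held 155, 222, 178 and 76 cells. Klf2 folds were 0.981, 1.06, 1.24 and 5.20, on 6, 8, 8 and 4 UMIs in that class. With a narrower list of 7 genes (Fos, Fosb, Egr1, Atf3, Ier2, Dusp1 and Nr4a1) and classes of 1 or more against none, they were 6.21, 5.14, 0.823 and 2.05, from as few as 3 UMIs in the high class of replicate 3. Klf4 was then the 1 factor higher in every library, on 1 UMI in the high class in each of replicates 2 and 3. Klf2 folds were 4.16, 2.58, 3.14 and 4.03 with 4 or more immediate early UMIs, and 1.55, 1.53, 1.75 and 2.82 with 2 or more. Without Btg2 in the list they were 3.84, 2.02, 2.65 and 3.62. Without the top 1% of cells by UMIs they were 2.70, 1.75, 2.19 and 3.24. A fold above 2 in replicate 4 was found in all of these settings. Folds in replicates 1 to 3 were above 1 except in replicate 1 at 2000 UMIs and in replicate 3 with the 7-gene list.

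Klf10 gave 14.2 against 10.4 UMIs per 1000 cells in replicate 1, 20.8 against 11.4 in replicate 2, 19.4 against 2.81 in replicate 3, and 15.5 against 10.9 in replicate 4. The folds of 1.36, 1.83, 6.90 and 1.43 rested on 8 to 24 UMIs against 2 to 10, and the intervals of the classes overlapped in every library. Klf4 folds ran from 0.575 to 4.30 on 1 to 23 UMIs per class. Klf6 folds were 1.33, 1.05, 1.19 and 0.976. Klf3, Klf7 and Klf13 had geometric means of 1.05, 1.03 and 1.07, close to the median of 1.01 over the other genes.

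**Figure D4:**
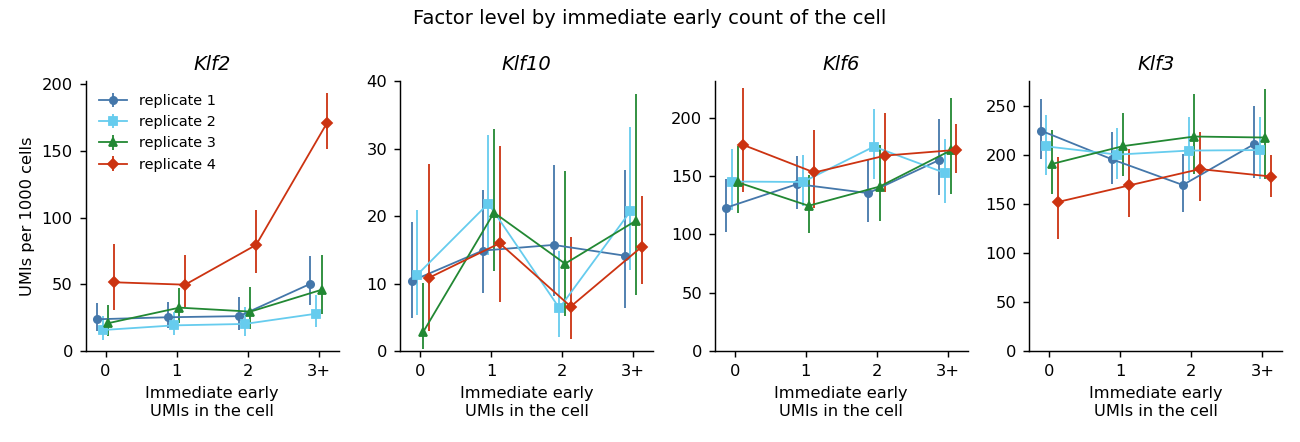
UMIs per 1000 cells of Klf2, Klf10, Klf6 and Klf3 against the number of immediate early UMIs in the cell (0, 1, 2, or 3 and more), by library, all cells thinned to 1000 UMIs, with exact 95% Poisson intervals. Klf2 in replicate 4 climbs from 51.6 to 171, whereas Klf6 and Klf3 stay within their intervals.

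Taken gene by gene in replicate 4, Klf2 was higher in cells with a UMI of 11 of the 12 immediate early genes than in cells without. The share of all genes with such a count was not examined. Cells with Fos held 262 Klf2 UMIs per 1000 cells and cells without held 99.7. The values were 167 and 70.2 for Jun, 237 and 106 for Ier2, 156 and 81.5 for Btg2, and 154 and 97.2 for Junb. The exception was Atf3, with 2 Klf2 UMIs in 36 cells, and the value for Nr4a1 rested on 4 Klf2 UMIs in 2 cells. In replicates 1 and 2 single genes gave large folds on very few cells, for example 14 Klf2 UMIs in the 6 cells with Nr4a1 in replicate 1 and 13 in the 7 such cells of replicate 2. Other genes gave 0 Klf2 UMIs, among them Egr1 (25 cells) and Atf3 (41 cells) in replicate 2. The same held for Fos (27 cells) and Ier2 (38 cells) in replicate 3. Of the 12 genes, Junb and Btg2 were the ones for which Klf2 was higher in all 4 libraries. That count was also 2 for Klf3, Klf6 and Klf10, and in replicate 4 Klf6 and Klf10 were each higher with 9 of the 12 genes, at median folds of 1.19 and 1.59 beside 1.94 for Klf2.

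The factors were then compared between cell classes. In the unnamed cluster Klf2 was measured at 1103, 310, 250.8 and 336 CPM in replicates 1 to 4, from 76, 42, 25 and 62 UMIs in 25, 19, 18 and 46 cells. In microglia-like clusters it was measured at 20.3, 14.6, 26.7 and 118 CPM. The unnamed cluster was therefore higher in 4 of 4 libraries, by 2.84 to 54.4 times, and the smallest ratio was that of replicate 4. Klf4 was at 174, 59.0, 60.2 and 75.8 CPM in the unnamed cluster and at 4.82, 3.10, 7.73 and 11.6 CPM in microglia-like clusters, on 6 to 14 UMIs per library in the former. Klf13 (1.24 to 2.92 times), Klf6 (1.17 to 1.63 times) and Klf10 (1.90 to 4.91 times, on 3 to 6 UMIs) were also higher there in 4 of 4 libraries. Klf3 and Klf7 were each higher there in 1 of 4. The share of all genes higher there in 4 of 4 libraries was not examined. Clusters were drawn without the KLFs and the immediate early genes, but from the other genes of these cells, so these values are a description.

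The unnamed cluster held 0.977 to 2.05% of the UMIs of a library. It held 34.5%, 20.6%, 14.1% and 5.57% of the Klf2 UMIs, and 26.1%, 19.0%, 12% and 12.2% of the Klf4 UMIs. The share of Klf2 from these cells was lowest in replicate 4. The summed border macrophage and monocyte markers were highest in replicate 4, where the cluster also held most cells. In that library Klf2 was at 118 CPM in microglia-like clusters and at 124 CPM over all cells. With microglia-like clusters alone the ratio of replicate 4 to the others was 5.75 for Klf2 and 2.23 for Klf4, both higher than with all cells, and 0.905 for Klf3. In the unnamed cluster itself Klf2 in replicate 4 (336 CPM, interval 257 to 430) was above replicates 2 (310) and 3 (250.8) and below replicate 1 (1103). The pooled level of replicates 1 to 3 (470 CPM, overlapping interval 396 to 554) rested on replicate 1 for 76 of its 143 UMIs. The immediate early list there was 1.83 times higher in replicate 4 than in replicates 1 to 3 pooled.

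**Figure D5:**
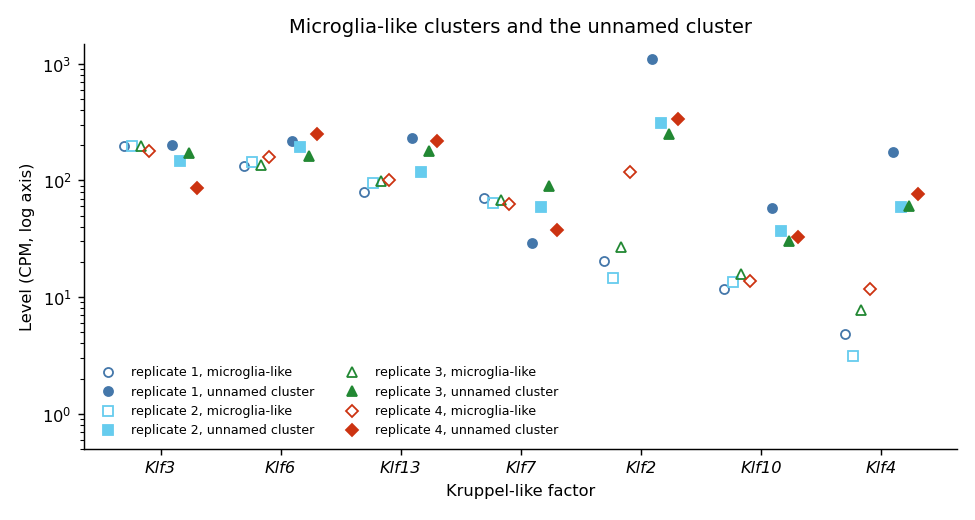
Level of each factor in CPM on a log axis in microglia-like clusters (open symbols) and in the unnamed cluster (filled symbols), by library. Klf2 and Klf4 are higher in the unnamed cluster in all 4 libraries, and the open Klf2 symbol of replicate 4 (118 CPM) lies above the other 3.

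Within the microglia-like class, Klf2 was higher in replicate 4 in each of the 3 large clusters. It was 140 CPM against 22.4 CPM in replicates 1 to 3 pooled in the largest (903 cells in replicate 4), 87.7 against 15.2 in the next (1233 cells) and 131 against 13 in the smallest of them (862 cells). In the interferon-responsive cluster, on 25 UMIs in 39 cells, it was 205 against 20.7 CPM, and in a cluster led by Ccl4, Lpl and Lgals3, on 21 UMIs in 26 cells, it was 172 against 13.2 CPM. The shallowest cluster differed. Its 49 cells of replicate 4 held 1 Klf2 UMI (17.4 CPM, interval 0.441 to 97.0) against 12.8 CPM on 2 UMIs in the others, and its immediate early list was also close, at 1080 CPM (interval 828 to 1384) against 948 CPM (802 to 1114), where the 3 large clusters had 3089 to 3183 CPM in replicate 4.

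Among relatives, 0 of the 10 other Klf genes reached 10 CPM. Klf16 came nearest at 8.21 ± 1.03 CPM, and Klf5, Klf8, Klf14 and Klf17 had 0 UMIs. Of the 9 Sp genes, Sp3 (42.7 ± 3.4 CPM), Sp2 (13.2 ± 1.82) and Sp1 (12.5 ± 1.08) did. Genes around Klf2 and Klf4 were read from lists of pathway members. Upstream, 8 of 10 reached 10 CPM, with the transcription factors Mef2c (980 ± 21.2 CPM) and Mef2a (373 ± 25.2) far above the kinases Map3k2, Map3k3, Map2k5 and Mapk7 (18.9 to 25.7), whereas the related Mef2d (24.6 ± 1.84) lay in the range of the kinases. The ratios of the 8 genes in replicate 4 ran from 0.879 to 1.15, and 0 of 8 were apart and high there. Map3k3 alone was apart, and low in replicate 2 (18.2 CPM against 19.7 in each of the others). Of the cofactors and ubiquitin ligases 7 of 8 reached 10 CPM, led by the CtBP corepressors Ctbp1 (97.3 ± 4.68) and Ctbp2 (81.4 ± 1.18), with ratios from 0.867 to 1.23.

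Of 12 reported KLF targets, 5 reached 10 CPM. They were the cytokine Tgfb1 (557 ± 18.2 CPM), its feedback inhibitor Smad7 (159 ± 3.16), the lipid receptor S1pr1 (27.1 ± 6.11), the cell cycle inhibitor Cdkn1a (17.9 ± 5.85) and the lectin Lgals3 (12.2 ± 4.33). Lgals3 had 12.8, 7.54, 10.8 and 17.9 CPM, a ratio of 1.73 in replicate 4 without standing apart. The endothelial targets Thbd and Nos3 had means of 0.459 and 0.0986 CPM, and endothelial markers summed to 8.73 to 17.9 CPM with 2 of 4 at 0 UMIs. The median ratio of replicate 4 to the others was 1.02 over the upstream list, 0.988 over the cofactors and 0.945 over the targets, beside 1.01 over all genes.

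The genes most like each factor were sought by the mean over the 4 libraries of the correlation across thinned cells (Pearson, log counts, 3098 or 3099 candidates at 50 CPM or more). Cells of a library share its depth and capture, and sparse counts keep these values low. Klf2 was most like Lyz2 (0.108), Tmsb10 (0.101) and Lsp1 (0.0978), all positive in each library and none of the immediate early list. The cells included the unnamed cluster, which held 5.57 to 34.5% of the Klf2 UMIs of a library. Klf4, also higher in that cluster, was most like Lyz2 as well (0.0709). Correlations within microglia-like clusters alone were not computed. No other factor at 10 CPM or more exceeded 0.0428 with any gene. The next were Cebpg, S100a13 and Malat1 for Klf6, Malat1, Hp1bp3 and 1600012H06Rik for Klf3, Nisch, Prorsd1 and Morc3 for Klf13, Lpar6, Smim11 and Mrpl14 for Klf7, and Sod2, Commd3 and Zfp326 for Klf10, and correlations of that size describe little. Between factors, Klf2 and Klf6 were found together in 88 thinned cells, against 65.3 had they been independent within libraries, with more than that in 4 of 4 libraries. Of the 21 pairs, the other with more in 4 of 4 was Klf3 and Klf10, with 41 cells against 30.6. In replicate 2 the excess was slight, at 8 cells against 7.57 for Klf2 and Klf6 and 10 against 9.72 for Klf3 and Klf10. Pairs of other genes were not examined, so the count of pairs has no background. Klf3 and Klf6, the most abundant pair, were found together in 321 cells against 308.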

How the data were processed

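The deposited files held whole-number UMI counts per gene and cell in 1 matrix per library. Per the methods and the submitters' processing notes, the authors made 10x Genomics 3′ libraries and ran Cell Ranger 2.2.0 for alignment and counting against mm10 (GRCm38) with a filtered Ensembl annotation, with cells called and values not normalized. Doublets were not removed. The members and gene lists were chosen with earlier results of these data known. Barcodes with fewer than 400 genes or mitochondrial UMIs above 10% were dropped, counts were summed per library and scaled to CPM, and exact Poisson and Clopper-Pearson intervals at 95% cover counting error only. For shares, Fano factors and classes each cell was thinned to 1000 UMIs. A library was called apart when Dixon's range ratio (two-sided) exceeded its 95% critical value for 4 values, on log2(CPM + 1) for genes and on the plain value for sums and shares. With 1 group no test between groups and no adjusted p was possible. Clusters came from Scanpy 1.11.5 (Leiden), with KLF, immediate early and the study's activation genes left out of the variable genes, which include Klf2. A cluster was microglia-like when at least 3 microglial markers were each found in 10% of its cells or more and no marker of another type was among its 10 leading genes. Named genes were the 7 factors, relatives and pathway genes at a mean of 10 CPM or more, the immediate early list, and for each such factor the 3 genes most correlated with it. Genes named outside that rule were chosen after their values were seen. Alternatives included edgeR 4.0.16 and DESeq2 1.42.0 library sizes. Statistics were first tested on simulated data. The promoter of Klf10 was not analysed here. The replicate numbers only name libraries, and no other columns of samples were present.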

Additional observations from a re-analysis of the deposited data

Results flagged for a closer look

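Of 77 values with 4 libraries that were examined, 11 had 1 library farther from its neighbor than Dixon's critical value allows, and many of the 11 describe the same library. Chance marks about 1 in 20 of values not chosen beforehand. The factors were chosen on their levels and detection, so their marks are a description and that rate is no measure for them. Klf3 was low in replicate 4, the gap taking 0.976 of the range over all cells and 0.960 over microglia-like cells. The share of cells with Klf2 at 1000 UMIs was high in replicate 4, with a ratio of 0.897. The summed immediate early list was high in replicate 4 with a ratio of 0.888, as were its members Junb (0.893), Ier2 (0.878), Btg2 (0.871), Dusp1 (0.866), Egr1 (0.831) and Zfp36 (0.830). Map3k3, a kinase upstream of ERK5, was low in replicate 2 with a ratio of 0.978, although its 4 values lay between 18.2 and 19.7 CPM.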

How the results depend on the processing

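No paired analysis was possible because all libraries belong to 1 group. The count of factors at 10 CPM or more and the count highest in replicate 4 stayed within 1.5 times their values under all library scalings, cell filters, the restriction to microglia-like clusters, thinning before summing and the leave-one-out sets that could be formed. Whether replicate 4 was highest and apart could not be judged with 3 libraries. On CPM without a log, 1 factor (Klf2) had replicate 4 highest and apart in place of 0, with no share of all genes computed on that scale. The count of factors higher in cells with 3 or more immediate early UMIs in every library was 2, and became 1 (Klf4) with the 7-gene list and 0 with cells thinned to 2000 UMIs. Leaving out 1 library gave 2 to 4, the 4 (Klf2, Klf4, Klf10 and Klf13) without replicate 3. The cause was not tested. The ratio of replicate 4 to the others ran from 4.31 to 5.75 for Klf2 and from 0.856 to 0.916 for Klf3 over the settings that kept 4 libraries, and from 4.02 to 5.11 for Klf2 without 1 of the others. Without replicate 4 the mean of Klf2 was 26.5 CPM. Depth limited Klf4 and Klf10, with 42 to 154 UMIs per library.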
